A study of Mus musculus with 34 samples.

Results

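The enzymes of ceramide synthesis and of sphingomyelin and glucosylceramide turnover were followed through myocardial infarction (MI) in the mouse left ventricle (LV), as the levels of 10 transcripts. They are Sptlc1 and Sptlc2, Cers2, Cers4, Cers5 and Cers6, Degs1, Smpd1, Sgms1 and Ugcg. They were taken by gene symbol from the deposited expression tables, and the list was chosen with earlier results of these data known. All 10 were found among the 14552 genes of the first table and among the 17406 genes of the second. Where an enzyme is said to rise, fall or differ, its transcript is meant. Protein, enzyme activity and ceramide were not examined here.

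Ceramide is built at the endoplasmic reticulum. Serine palmitoyltransferase, whose core subunits are encoded by Sptlc1 and Sptlc2, joins serine to palmitoyl-CoA, and after a reduction step a ceramide synthase attaches a fatty acid to the sphingoid base. Each ceramide synthase prefers acyl chains of certain lengths: Cers2 makes ceramides of very long chains, Cers4 of long to very long chains, and Cers5 and Cers6 mainly of palmitoyl length. The desaturase Degs1 then turns dihydroceramide into ceramide. Sphingomyelin synthase 1 (Sgms1) converts ceramide to sphingomyelin in the Golgi, the acid sphingomyelinase Smpd1 returns it in the lysosome, and the ceramide glucosyltransferase Ugcg makes glucosylceramide, the base of most glycosphingolipids. Ceramide is known to accumulate in ischemic myocardium and to favor cell death.

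RNA was sequenced from the LV of CFW mice, an outbred stock, in which the left anterior descending artery had been tied off for good to induce MI. The first table held uninjected hearts, of which 3 were sham, 3 were taken 4 h and 4 were taken 24 h after MI. These libraries were made from the ischemic part of the LV, with the matching part taken in sham hearts, and the controls are called sham in their titles and in the methods while another label gives no operation. The second table held 2 sham-operated, uninjected hearts labeled 4 h, and hearts injected in the border zone, right after ligation, with modified mRNA (modRNA) named Luc, the luciferase reporter, or AC, a name that the labels do not spell out. Of these there were 4 Luc and 4 AC hearts at 4 h, 3 and 3 at 24 h, and 4 and 4 at 48 h post-MI. Sex and age are not given in the sources used here. Values are in CPM as the authors normalized them, and they do not add up to one total: the sums over genes were 568058 to 662286 CPM in the first table and, in the second, 619752 to 628938 CPM in sham, 730630 to 818456 CPM in Luc hearts at 24 h, 508204 to 641170 CPM in Luc hearts at 48 h and 518618 to 534624 CPM in AC hearts at 48 h.

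All 7 cardiomyocyte markers were above 0 in every group. In the first table the summed CPM of these markers was 32187 to 32614 in sham, 32101 to 34366 at 4 h and 12743 to 21288 at 24 h post-MI, and the summed CPM of 5 neutrophil markers was 1.25 to 1.74, 7.14 to 29.9 and 283 to 1808. In the second table the later libraries stood apart: the 3 atrial markers Myl4, Myl7 and Sln summed to 45.5 to 190 CPM in Luc and 23.5 to 353 CPM in AC at 24 h, and to 4.35 to 63.3 CPM in Luc and 28.3 to 95 CPM in AC at 48 h, against 0.945 to 1.49 CPM in sham and 1.12 to 3.02 CPM at 4 h. The 24 h and the 48 h libraries of that table also carry other series of names than the sham and 4 h libraries, so that time and name series cannot be told apart there, while each comparison of AC with Luc lies within a series. The reads on the listed genes, estimated from the sum and the lowest value of each library, numbered 12553519 to 18952669 in the first table. The methods give a higher mean number of reads per sample. In the second table depth is unknown. In whole tissue, fewer cells of a type and less RNA per cell cannot be told apart.

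In the mm10 coordinates of the tables, the genes span Sptlc1 at chr13:53332748-53377361, Sptlc2 at chr12:87305058-87388355, Cers2 at chr3:95315190-95323599, Cers4 at chr8:4493405-4526079, Cers5 at chr15:99735592-99772515, Cers6 at chr2:68861441-69114283, Degs1 at chr1:182275770-182282759, Smpd1 at chr7:105554360-105558389, Sgms1 at chr19:32122727-32388454 and Ugcg at chr4:59189550-59222833. The 10 promoters are shown through the 4 members whose transcripts were raised most at 24 h post-MI in the first table, as the 250 bases before the annotated start (RefSeq, GRCm38.p6, 5′ to 3′ on the strand of the gene). Capitals mark the GC box GGGCGG, the CCAAT box CCAAT and the E-box CACGTG on either strand. The windows are chr12:87388356-87388605, minus strand, for Sptlc2, chr3:95314940-95315189, plus strand, for Cers2, chr2:68861191-68861440, plus strand, for Cers6, and chr4:59189300-59189549, plus strand, for Ugcg.
Sptlc2: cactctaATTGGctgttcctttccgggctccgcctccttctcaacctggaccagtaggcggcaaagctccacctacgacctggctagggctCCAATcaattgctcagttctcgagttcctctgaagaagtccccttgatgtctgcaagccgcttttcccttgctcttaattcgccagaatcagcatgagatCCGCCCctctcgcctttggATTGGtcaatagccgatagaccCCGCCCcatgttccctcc
Cers2: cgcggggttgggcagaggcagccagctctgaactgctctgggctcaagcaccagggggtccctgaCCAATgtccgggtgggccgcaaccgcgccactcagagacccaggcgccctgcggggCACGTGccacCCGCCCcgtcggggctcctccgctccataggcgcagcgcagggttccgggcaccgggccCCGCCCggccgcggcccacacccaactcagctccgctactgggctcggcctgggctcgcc
Cers6: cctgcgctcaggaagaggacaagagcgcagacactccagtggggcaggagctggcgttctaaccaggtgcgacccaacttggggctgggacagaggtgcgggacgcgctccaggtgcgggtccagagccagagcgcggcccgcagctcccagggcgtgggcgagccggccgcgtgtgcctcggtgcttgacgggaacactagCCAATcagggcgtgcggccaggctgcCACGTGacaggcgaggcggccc
Ugcg: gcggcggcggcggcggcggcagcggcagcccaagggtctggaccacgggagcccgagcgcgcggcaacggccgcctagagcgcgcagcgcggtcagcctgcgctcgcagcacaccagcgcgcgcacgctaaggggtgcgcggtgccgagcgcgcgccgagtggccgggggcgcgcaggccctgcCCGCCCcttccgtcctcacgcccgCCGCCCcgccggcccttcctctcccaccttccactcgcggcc

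These 4 windows are unlike in their motifs. Sptlc2 had 3 CCAAT boxes and 2 GC boxes in a window of 55.2% G and C, Cers2 held all the motifs searched, Cers6 had 1 CCAAT box and 1 E-box and no GC box, and Ugcg had 2 GC boxes alone in a window of 80.4% G and C with 43 CG pairs. Over the 10 members, a GC box stood in 8 windows, a CCAAT box in 5 and an E-box in 3 (Cers2, Cers6 and Degs1). The Degs1 window, chr1:182282196-182282445, precedes an annotated start 564 bases inside the gene span given above, so that its E-box lies within that span. The annotated start used for Sgms1 lies 58 bases outside its span. Of all 32851 mouse windows of this length, 32.7% held a GC box, 33.8% a CCAAT box and 6.02% an E-box. All 10 member windows were richer in G and C (55.2% to 80.4%) than the median window (52.4%). A match describes the letters of the window and not binding of a factor.

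The members differed widely in level in sham LV. Per kilobase of the longest coding transcript, Smpd1 was the highest at 59.0 ± 3.72 CPM per kilobase (SD, n = 3), followed by Degs1 at 26.6 and Cers2 at 13.0, and Cers6 was the lowest at 1.12 CPM per kilobase. The order in the first table was Smpd1, Degs1, Cers2, Sgms1, Cers5, Sptlc1, Ugcg, Cers4, Sptlc2 and Cers6, and of these neighbors only Sptlc1 and Ugcg overlapped between libraries. With the union of all exons as the length, Cers5 fell below Sptlc1 (4.35 against 4.66 CPM per kilobase). In the second table the sham order differed only in that Cers4 stood above Ugcg. Cers2, which makes very-long-chain ceramide, held 56.8% ± 3.91 of the summed per-kilobase level of Cers1 to Cers6 in sham of the first table, Cers5 24.2% ± 2.35, Cers4 13.2% ± 1.43 and Cers6 4.91% ± 0.881. Cers1 and Cers3 made up the small rest.

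**Figure D1:**
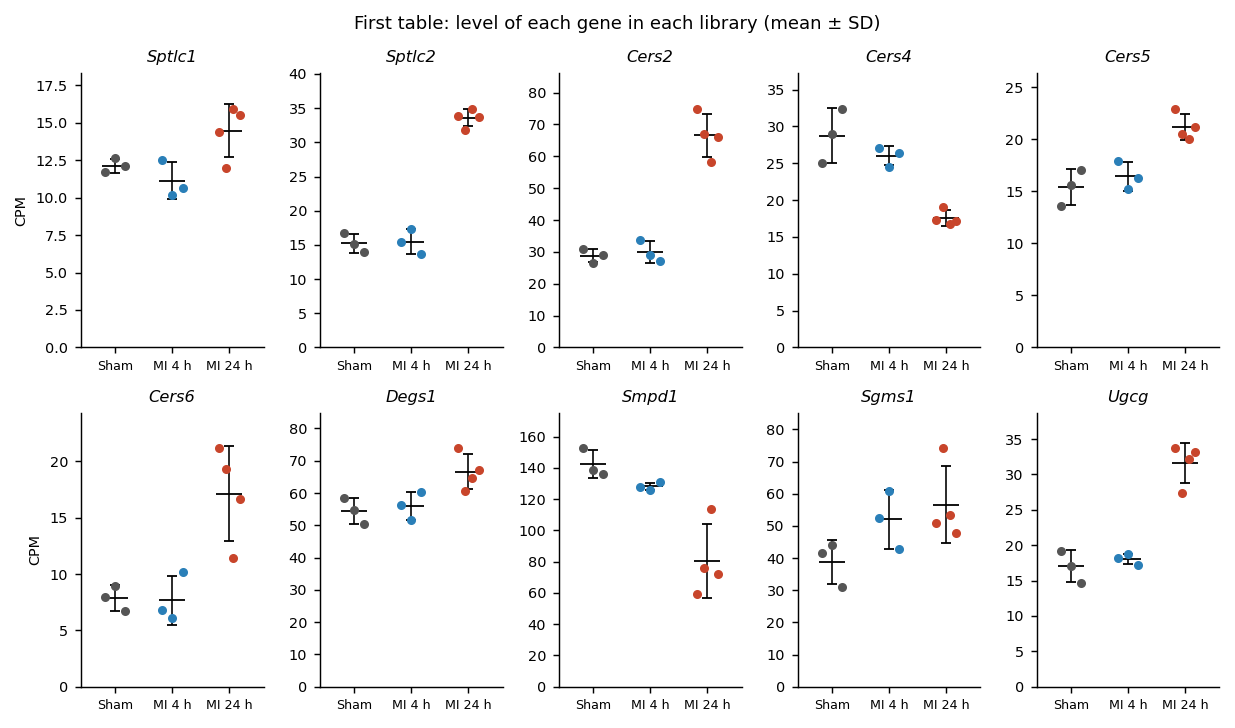
Level of each of the 10 genes in the first table, in CPM, for 3 sham libraries, 3 at 4 h and 4 at 24 h post-MI. Points are libraries, each bar is the mean and its whiskers the SD; the 24 h points of Sptlc2, Cers2, Cers6 and Ugcg lie above all other points of those genes, and those of Cers4 and Smpd1 below.

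At 4 h post-MI no enzyme of the group differed detectably from sham. None of the 10 had a q value under 0.05 and none an unadjusted p under 0.05 (limma), where 2.37% of the 12487 genes tested were called. Sgms1 was nearest, at 52.5, 60.9 and 42.7 CPM against 41.5, 44.0 and 31.1 in sham, a log2 difference of 0.41 ± 0.19 (SE, q = 0.304) with ranges that overlapped. Smpd1, at 126 to 131 CPM against 136 to 153 in sham, was the 1 member of 10 whose groups did not overlap, a state that 28.8% of all genes shared. Its log2 difference was -0.15 with a 95% interval from -0.55 to 0.26. For the other 8 the difference lay between -0.13 and 0.09, and the widest of their intervals ran from -0.54 to 0.44 (Cers6).

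At 24 h post-MI, 7 of the 10 transcripts had risen and 2 had fallen against the same sham hearts. Cers2 was at 2.31-fold, Sptlc2 at 2.20-fold, Cers6 at 2.17-fold and Ugcg at 1.86-fold the sham mean, and Smpd1 and Cers4 fell to 0.565 and 0.611 of sham. This time point changed most of the transcriptome, with 66% of genes called, 35.6% higher and 30.3% lower, so that 9 of 10 is to be read against that share. The median log2 change of the 10 was 0.48, beside 0.04 over all genes tested.

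Of the subunits of serine palmitoyltransferase, Sptlc2 passed the test and Sptlc1 did not; the difference between them was not tested. Sptlc2, the subunit that with Sptlc1 forms the active site, was at 16.7, 15.2 and 13.9 CPM in sham, at 15.5, 17.3 and 13.7 at 4 h and at 33.8, 31.9, 34.9 and 33.7 at 24 h. The 24 h hearts were all above every other heart, and the log2 change from sham was 1.09 ± 0.10 (SE, q = 4.41e-06). Sptlc1 was at 11.7, 12.6 and 12.1 CPM in sham and at 14.4, 12, 15.9 and 15.5 at 24 h, with library D inside the sham range, and its change of 0.23 ± 0.12 did not pass (q = 0.107), but did without library D (0.31, q = 0.0271). Within a library, the ratio of Sptlc2 to Sptlc1 CPM was 1.26 ± 0.148 in sham, 1.41 ± 0.255 at 4 h and 2.34 ± 0.226 at 24 h (SD).

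The ceramide synthases split. Cers2 was at 30.9, 26.7 and 28.9 CPM in sham and at 74.8, 67.0, 58.3 and 66.1 at 24 h, with no overlap and a log2 change of 1.18 ± 0.11 (q = 4.31e-06), the largest of the 10. Cers6 was at 7.96, 8.95 and 6.73 CPM in sham and at 21.2, 19.3, 11.4 and 16.6 at 24 h, a change of 1.0 ± 0.21 (q = 0.00132). Library G, with 11.4 CPM, was the lowest of the 24 h hearts and still above sham. Cers5, which shares its chain length with Cers6, rose from 13.6, 15.6 and 17.1 CPM to 22.9, 20.5, 20.1 and 21.2, a change of 0.44 ± 0.10 (q = 0.00317). Cers4 went the other way, from 25.0, 28.9 and 32.4 CPM in sham to 17.3, 19.1, 16.7 and 17.2, a log2 change of -0.67 ± 0.10 (q = 0.000149), with all 24 h hearts below all sham and 4 h hearts.

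The makeup of the ceramide synthase transcripts was also different at 24 h. Per kilobase, the share of Cers2 among Cers1 to Cers6 was 54.4% to 61.3% in sham, 54.8% to 59.5% at 4 h and 70.7% to 71.7% at 24 h. Cers4 made up 11.6% to 14.3% in sham and 3.88% to 4.75% at 24 h, and Cers5 21.5% to 25.7% and 17.3% to 19.5%. The share of Cers6 overlapped between sham (4.00% to 5.76%) and 24 h (4.37% to 6.41%), and its ratio to Cers2 was 0.275 ± 0.0539 in sham and 0.255 ± 0.0422 at 24 h. Not divided by length, the CPM of Cers4 equaled that of Cers2 in sham, at a ratio of 1.01 ± 0.169, and was at 0.266 ± 0.0257 of it at 24 h. The shares thus rest on the transcript lengths used, 9475 bases for Cers4 and 2216 for Cers2. These shares are descriptions without a test.

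**Figure D2:**
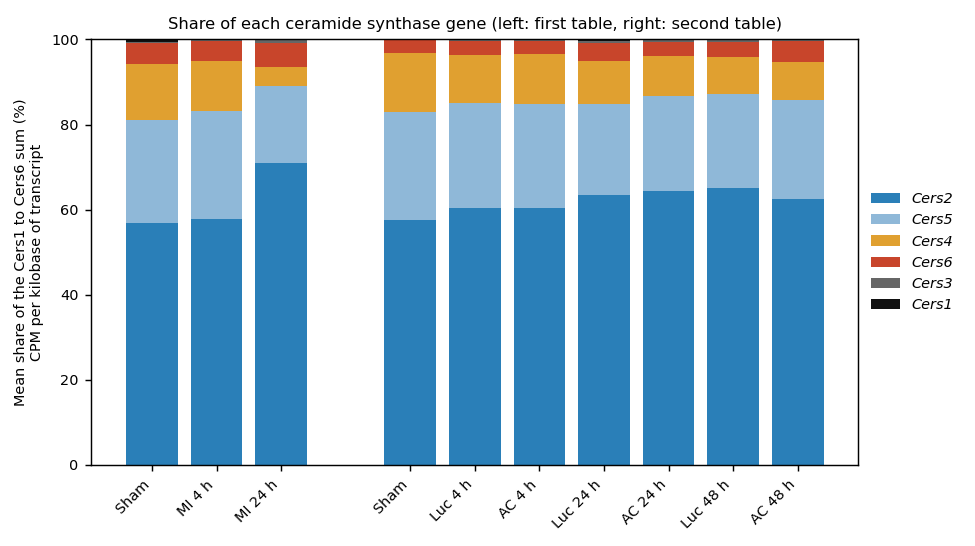
Mean share of each ceramide synthase gene in the summed CPM per kilobase of Cers1 to Cers6, in percent, by group (stacked bars; 3 groups of the first table at the left, 7 of the second at the right). Cers2 makes up 56.8% in sham and 71.1% at 24 h post-MI in the first table, and 57.7% in sham and 65.1% in Luc hearts at 48 h in the second.

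Degs1, the last step to ceramide, rose with the smallest of the called changes. It was at 58.3, 54.7 and 50.3 CPM in sham and at 73.8, 60.7, 64.7 and 67.3 at 24 h, without overlap, a log2 change of 0.29 ± 0.10 (q = 0.0231). The call was lost without sham library H (q = 0.0586), without sham library I (q = 0.0966) and without 24 h library C (q = 0.0578). It was also lost with the replicate label fitted as a block (0.19, q = 0.222).

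The transcripts of the sphingomyelin enzymes moved in opposite directions. Smpd1 was at 153, 139 and 136 CPM in sham, at 128, 126 and 131 at 4 h and at 59.4, 76.3, 114 and 72.2 at 24 h, and fell by 0.85 on the log2 scale (SE 0.17, q = 0.00108). Library G, at 114 CPM, was nearest to the other groups and did not reach them. Sgms1 was at 50.8, 74.1, 53.5 and 47.7 CPM at 24 h, above all 3 sham hearts, with a change of 0.52 ± 0.18 (q = 0.0210), a call lost without sham library I (0.37, q = 0.105) or 24 h library D (0.39, q = 0.0510). With the replicate label fitted as a block this call was lost too (0.45, q = 0.0548). The ratio of Sgms1 to Smpd1 CPM was 0.229 to 0.318 in sham and 0.470 to 0.972 at 24 h. Ugcg, which takes ceramide to glucosylceramide, was at 19.2, 17.1 and 14.7 CPM in sham and at 33.7, 27.4, 32.2 and 33.1 at 24 h, a change of 0.86 ± 0.11 (q = 4.35e-05) with all 24 h hearts above all others.

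**Figure D3:**
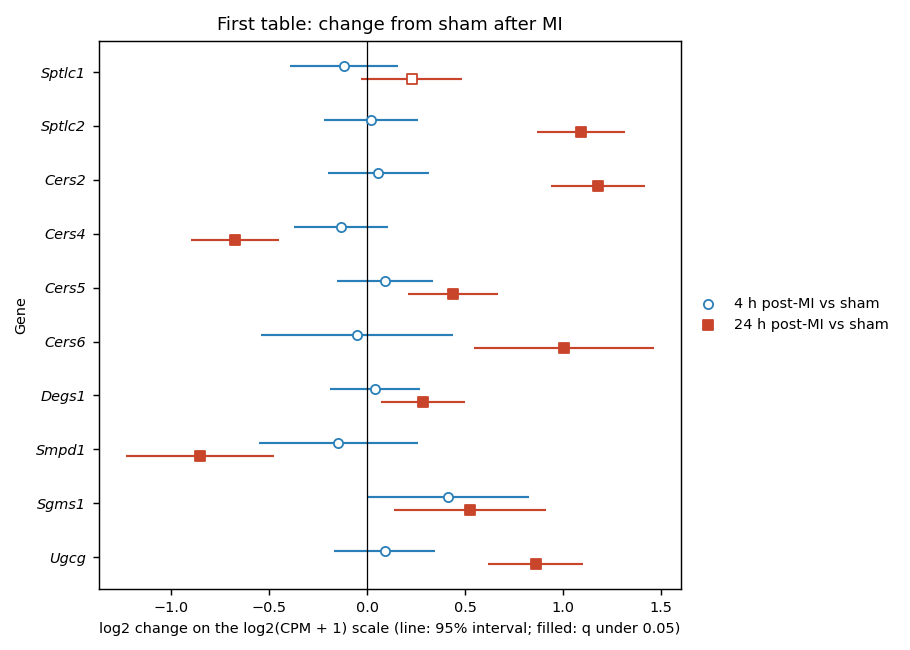
Log2 change from sham at 4 h (circles) and 24 h (squares) post-MI in the first table, on the log2(CPM + 1) scale, with the 95% interval as a line; filled symbols have q under 0.05. No symbol is filled at 4 h, and at 24 h Sptlc1 alone is open, with Cers2 at 1.18 the farthest to the right and Smpd1 at -0.85 the farthest to the left.

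The groups of all members but Sptlc1 did not overlap between 24 h and sham, which was so for 64% of all genes. Cell type markers moved with the same contrast. Over the 24 h hearts C, D, G and H the cardiomyocyte sum was 12743, 17764, 21288 and 15554 CPM and the neutrophil sum 1808, 1594, 283 and 769 CPM. Library G, with the most cardiomyocyte and the least neutrophil RNA, was the nearest to sham of the 24 h hearts in Cers2, Cers5, Cers6 and Smpd1 and the farthest from it in Sptlc1, Sptlc2 and Cers4, and in Degs1, Sgms1 and Ugcg it was neither. The macrophage and monocyte sum of 6 markers was 95 to 161 CPM in sham and 333 to 696 CPM at 24 h, the fibroblast sum of 5 markers 692 to 740 and 377 to 711 CPM, and the endothelial sum of 5 markers 505 to 510 and 365 to 560 CPM. Their part in the results was not tested.

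The change from 4 h to 24 h post-MI, which shares its 24 h hearts with the contrast above, was called for 9 of 10 members, where 63.9% of genes were called. The groups of 8 of the 10 did not overlap, as was so for 62.2% of all genes. Of the 9, 7 were higher: Cers2 by 1.12, Sptlc2 by 1.07, Cers6 by 1.06, Ugcg by 0.77, Sptlc1 by 0.35, Cers5 by 0.35 and Degs1 by 0.24 on the log2 scale, with Degs1 (q = 0.0466) and Sptlc1 (q = 0.0222) nearest to the threshold. Smpd1 and Cers4 were lower, by -0.71 and -0.54. Sgms1 did not differ detectably (0.11, 95% interval -0.27 to 0.50). Its 4 h mean of 52.0 CPM lay between those of sham (38.9) and 24 h (56.5), and its 4 h hearts overlapped both groups. Leaving out single libraries touched 3 of the calls: Sptlc1 (24 h library H and 4 h libraries D and E, highest q = 0.0858), Cers5 (4 h library D, q = 0.0570) and Degs1 (24 h libraries C and H and 4 h libraries C and D, highest q = 0.173). Without 4 h library D, 6 calls were left. The same 3 calls were lost after median-ratio rescaling. That of Degs1 was also lost without the trend in limma (q = 0.0623) and with only these groups fitted (q = 0.0678). That of Sptlc1 was lost with the replicate label fitted as a block (q = 0.205).

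Among 25 other genes of the pathway that could be tested, of 30 listed, none was called at 4 h (4 had an unadjusted p under 0.05, limma) and 13 were called at 24 h against sham, 8 higher and 5 lower, where 66% of all genes were called. The greatest changes were in Sgms2, the plasma membrane sphingomyelin synthase, from 1.33 ± 0.210 to 13.0 ± 3.44 CPM (log2 change 2.56), and in B4galt5, which makes lactosylceramide from the product of Ugcg, from 9.26 ± 0.959 to 53.7 ± 9.89 CPM (2.40). Elovl1, the elongase that supplies very-long-chain acyl-CoA to Cers2, rose by 1.32, and Ormdl2, of the family that restrains serine palmitoyltransferase, by 1.13. Of the 7 further genes that were listed with the sphingomyelin enzymes, 2 were higher and 3 lower. From 4 h to 24 h, 10 were higher and 4 lower, where 63.9% of all genes were called, led by B4galt5 (2.14), Sgms2 (1.83), Elovl1 (1.42) and Ormdl2 (1.17).

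In the second table, AC and Luc hearts were compared at equal times. At 4 h and 24 h the treatments were set apart by 1 gene of ceramide breakdown, Asah1, the gene of acid ceramidase. It was at 5296 to 13703 CPM in AC and 23.9 to 27.2 CPM in Luc hearts at 4 h, and at 104 to 305 against 22.0 to 24.7 CPM at 24 h. The values are per gene, so that the heart's own transcript and any injected RNA of like sequence cannot be told apart. Asah1 was at 42.5 to 112 against 21.4 to 28.2 CPM at 48 h, when 15.3% of all genes were called. At 4 h and at 24 h it was the 1 gene called of 12555 (0.00796%). At 4 h, 4 genes were called without a filter and 6 with array weights, and at 24 h 6 without a filter and none with those groups fitted alone.

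The 10 enzymes did not differ detectably between AC and Luc hearts at 4 h or at 24 h. None was called and none had an unadjusted p under 0.05 at either time (limma), where 131 and 599 of all genes did. At 4 h the log2 difference lay between -0.13 (Cers6) and 0.14 (Ugcg), and the 95% intervals of the 10 members all lay between -0.50 and 0.50. The groups of every member overlapped, and 2.02% of all genes did not. At 24 h the differences lay between -0.22 (Cers6) and 0.21 (Cers5), within intervals from -0.65 to 0.48. The 3 AC hearts at 24 h had 21.5, 21.8 and 21.2 CPM of Cers5 and the Luc hearts 19.5, 17.0 and 18.8, and for Cers6 the AC hearts had 7.68, 7.78 and 8.57 and the Luc hearts 10.2, 8.69 and 9.64. These were the 2 members whose groups did not overlap, as was so for 9.33% of all genes.

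At 48 h 2 enzymes differed: Cers6 was higher and Sgms1 lower in AC hearts. Of all genes 15.3% were called, 12.1% higher and 3.27% lower, and the median difference over all genes was 0.14. With single libraries left out the share was 6.47% (without Luc heart 3) to 23.0% (without Luc heart 4). The split depended on scaling, with 1516 genes higher and 410 lower in the main analysis and 822 and 802 after median-ratio rescaling, in which Cers6 was not called (0.46, q = 0.0929) and Smpd1 was (-0.41, q = 0.0322). Sgms1 was at 40.1, 41.6, 42.1 and 35.6 CPM in AC hearts and at 89.1, 51.7, 68.7 and 44.8 in Luc hearts 1 to 4, without overlap, a log2 difference of -0.61 ± 0.18 (q = 0.0219). The AC hearts lay close together and the Luc hearts far apart. Cers6 was at 9.61, 14, 15.8 and 11.7 CPM in AC hearts and at 7.74, 8.82, 5.64 and 10.3 in Luc hearts, a difference of 0.60 ± 0.18 (q = 0.0262) with AC heart 1 below Luc heart 4.

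Sptlc1 was at 13.4, 14.4, 15.1 and 13.1 CPM in AC hearts and at 11.4, 11.5, 9.25 and 11.9 in Luc hearts, without overlap, but its difference of 0.32 missed the threshold (95% interval 0.09 to 0.56, q = 0.0561). Cers5, at 23.2 to 24.9 against 17.9 to 21.7 CPM, differed by 0.29 (0.07 to 0.51, q = 0.0716), Ugcg, at 19.2 to 31.3 against 17.2 to 19.7 CPM, by 0.40 (0.04 to 0.77, q = 0.123), and Cers4 by 0.31 (0.03 to 0.58, q = 0.118). Smpd1 was at 104 to 118 CPM in AC and 126 to 146 CPM in Luc hearts, a difference of -0.26 (-0.55 to 0.03, q = 0.213). In all, 4 of the 10 members did not overlap between the treatments, where 19.1% of all genes did not. The differences of Sptlc2, Cers2 and Degs1 were 0.23, 0.17 and 0.20.

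**Figure D4:**
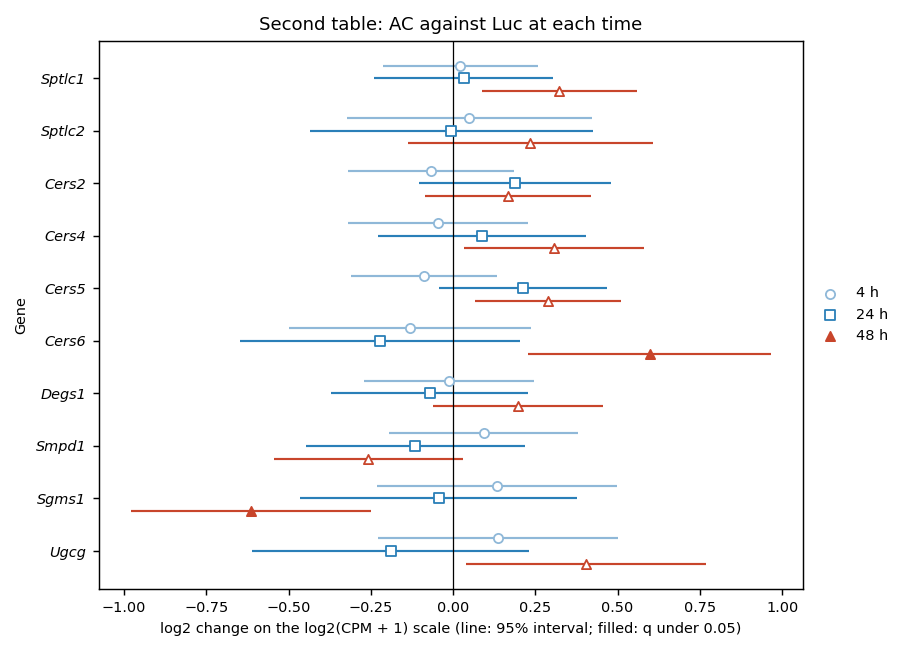
Log2 difference of AC from Luc hearts at 4 h (circles), 24 h (squares) and 48 h (triangles) in the second table, on the log2(CPM + 1) scale, with the 95% interval as a line; filled symbols have q under 0.05. Symbols at 4 h and 24 h lie between -0.22 and 0.21 and are open, and at 48 h those of Cers6 (0.60) and Sgms1 (-0.61) are filled.

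The 48 h calls rested on single hearts and on the pooled spread: with only the AC and Luc hearts of 48 h fitted, neither passed (Cers6 q = 0.0727, Sgms1 q = 0.0653). With the replicate label fitted as a block, neither passed either (Cers6 0.49, q = 0.133, Sgms1 -0.51, q = 0.176). Both were lost without Luc heart 1, the highest in Sgms1 (Sgms1 -0.44, q = 0.10, Cers6 q = 0.0666), and without Luc heart 3, the lowest in Cers6 (Cers6 0.45, q = 0.129, Sgms1 q = 0.0819). Cers6 was also lost without AC heart 2 (q = 0.0830) or 4 (q = 0.103), and Sgms1 without AC heart 5 (q = 0.0674), while without Luc heart 4 there were 4 calls, with Sptlc1 (q = 0.0386) and Cers4 (q = 0.0306) added. Cell type markers moved with the treatment at 48 h: the cardiomyocyte sum was 16602 to 20297 CPM in AC and 22765 to 33764 CPM in Luc hearts, the fibroblast sum 1328 to 2086 and 752 to 1165 CPM, and the macrophage and monocyte sum 378 to 558 and 182 to 255 CPM, none of them overlapping. The atrial sums, 28.3 to 95 CPM in AC and 4.35 to 63.3 CPM in Luc hearts, overlapped. So did the neutrophil sums, 99.5 to 139 CPM in AC and 110 to 401 CPM in Luc hearts. The endothelial sums, 371 to 521 and 301 to 519 CPM, overlapped too. Luc heart 1, with the most Sgms1, had the highest cardiomyocyte, neutrophil, endothelial, and macrophage and monocyte sums of the Luc hearts. Its fibroblast sum was not the highest. The part of these cells in the result was not tested.

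Whether the effect of AC itself changed with time was tested directly, and no member was called, with an unadjusted p under 0.05 (limma) for 3 members between 48 h and 4 h, 3 between 48 h and 24 h and none between 24 h and 4 h. The difference between the AC effects at 48 h and at 4 h was 0.73 ± 0.25 for Cers6 (q = 0.114) and -0.75 ± 0.25 for Sgms1 (q = 0.101), where 3.35% of genes were called, 2.88% higher, and that between 48 h and 24 h 0.82 ± 0.27 (q = 0.118) and -0.57 ± 0.27 (q = 0.283), where 2.56% were. These differences share the 48 h hearts. Between 48 h and 4 h, Cers6 was called without AC 4 h heart 2 (0.91, q = 0.0303), together with Smpd1 (-0.54, q = 0.0480), or without Luc 48 h heart 4 (0.84, q = 0.0417), together with Sgms1 (-0.90, q = 0.0227). Between 48 h and 24 h it was called without Luc 48 h heart 4 (0.93, q = 0.0450). Between 24 h and 4 h the 10 values lay between -0.33 and 0.30, and 0.00796% of genes were called.

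Of the other pathway genes, 6 of 25 were higher in AC than in Luc hearts at 48 h and none lower, where 12.1% of all genes were higher and 3.27% lower (822 and 802 genes after median-ratio rescaling). The greatest were B4galt5 (45.1 to 65.1 against 19.9 to 37.8 CPM, log2 difference 0.93), Elovl6, an elongase of palmitate (0.72), the desaturase Degs2 (0.53) and Elovl1 (0.51). None was called at 4 h or 24 h.

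The injected MI hearts were also set against sham in the second table, in which ligation and Luc modRNA came together and 2 sham hearts served all 3 times. At 4 h no member was called, where 1.55% of genes were (0.414% without sham heart 1, 2.59% without sham heart 2). Cers4, at 32.0, 32.5, 30.5 and 28.6 CPM against 39.5 and 43.2 in sham, had the 1 unadjusted p under 0.05 (log2 change -0.41, q = 0.258). Sptlc2, Sptlc1 and Cers5 also did not overlap with sham, and 32.5% of all genes did not.

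At 24 h, 3 members were called, where 34.1% of genes were, 25.3% higher and 8.79% lower. Without sham heart 1, 13.4% were called, and the 3172 higher and 1103 lower genes became 2292 and 2043 by median ratios and 1836 and 2483 at equal totals. The groups of 6 members did not overlap, as was so for 55.9% of all genes. Sptlc2 was at 49.3, 28.7 and 22.8 CPM in Luc hearts A, C and D and at 18.2 and 16.6 in sham, a log2 change of 0.84 ± 0.23 (q = 0.00825), and Ugcg at 25.8, 19.6 and 19.1 against 13.8 and 13.4, a change of 0.61 ± 0.23 (q = 0.0407). Cers4 was lower, at 28.1, 27.9 and 32.4 CPM (-0.48 ± 0.17, q = 0.0340). Heart A had the most Sptlc2 and Ugcg, and without it none of the 3 was called (Sptlc2 0.53, q = 0.0565, Ugcg q = 0.145, Cers4 q = 0.0827). Cers4 was also lost without heart C (q = 0.0840). None was called either without sham heart 2, and Sptlc2 alone was called without sham heart 1. With only Luc 24 h and sham hearts fitted, no member was called (Sptlc2 q = 0.0695, Ugcg q = 0.0609, Cers4 q = 0.0926). Rescaling ended the call of Ugcg (q = 0.164 by median ratios, q = 0.319 at equal totals) and, at equal totals, that of Sptlc2 (q = 0.108), and Cers5 was then called lower (-0.45, q = 0.00625 by median ratios, and -0.56, q = 0.00142 at equal totals). Smpd1 was at 205, 177 and 209 CPM in Luc hearts and 141 and 150 in sham (0.43, q = 0.0649), and Cers2 at 53.5, 37.2 and 41.3 against 40.9 and 40.1 (0.10, 95% interval -0.22 to 0.43).

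In the first table, Smpd1 at 24 h was at 0.565 and Cers2 at 2.31 of sham, and the tables, normalized separately, were not tested against each other. The cardiomyocyte sum in these Luc hearts was 44177 to 57582 CPM, above the 34409 to 36015 CPM of sham, where in the first table it was below sham, and the neutrophil sum was 43.0 to 83.5 CPM. Their part in the results was not tested.

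At 48 h Cers4 alone was called, at 23.2, 26.9, 20.1 and 31.2 CPM in Luc hearts 1 to 4 against 39.5 and 43.2 in sham, a fall by 0.70 on the log2 scale (SE 0.16, q = 0.00257), where 30.1% of genes were called, 16.4% lower (17.1% of genes called in all without sham heart 1). No single one of the 6 libraries ended the call when it was left out, but it was lost with only these groups fitted (q = 0.0645). At equal totals the 1714 higher and 2060 lower genes became 2502 and 1286. The cardiomyocyte sum was 22765 to 33764 CPM in these Luc hearts and 34409 to 36015 CPM in sham, and the neutrophil sum 110 to 401 and 2.63 to 20.1 CPM, neither overlapping, and their part in the result was not tested. Sptlc2 (0.44, q = 0.136) and Ugcg (0.44, q = 0.130) did not pass, with 5 of 10 members not overlapping between the groups and 40.8% of all genes.

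Within Luc hearts, Ugcg (0.70, q = 0.00759), Sptlc2 (0.57, q = 0.0292) and Cers6 (0.51, q = 0.0441) were higher at 24 h than at 4 h, where 32.3% of genes were called, 24.5% higher and 7.8% lower. At equal totals the 3079 higher and 979 lower genes became 1708 and 1839, and all 3 calls were lost (Ugcg q = 0.0763, Sptlc2 q = 0.224, Cers6 q = 0.309) while Cers5 was called lower (-0.29). By median ratios Sptlc2 and Cers6 were lost (q = 0.124 and 0.164), and with only these groups fitted Sptlc2 was (q = 0.0551) and Smpd1 was called higher (0.30, q = 0.0426). Cers6 was at 10.2, 8.69 and 9.64 CPM at 24 h and at 6.36, 6.28, 6.74 and 6.04 at 4 h, without overlap, as in 2 of the 10 members and 48.4% of all genes. All 3 calls were lost without 24 h heart A (q = 0.0552, 0.302 and 0.131), Cers6 also without each of the other 6 libraries (highest q = 0.0994 among them), and Sptlc2 also without 4 h heart 2 or 4 (q = 0.0745 and 0.0655). Sgms1 was called without 24 h heart D (0.61, q = 0.0320). The cardiomyocyte sum was 34336 to 40636 CPM at 4 h and 44177 to 57582 CPM at 24 h. The macrophage and monocyte sum was 183 to 237 and 97.8 to 133 CPM, and the atrial sum 1.12 to 2.69 and 45.5 to 190 CPM. None of these overlapped, nor did the fibroblast and endothelial sums, while the neutrophil sums did (70.4 to 154 and 43.0 to 83.5 CPM). Their part in these results was not tested. From 24 h to 48 h Smpd1 alone was called, from 205, 177 and 209 to 146, 128, 137 and 126 CPM (-0.55 ± 0.15, q = 0.00587), where 41.9% of genes were called, 9.32% higher and 32.6% lower. It was the 1 member without overlap, and 41% of all genes had none. Sptlc2 was called without 24 h heart D (-0.63, q = 0.0219) and Sgms1 without 48 h heart 1 (-0.47, q = 0.0370). The cardiomyocyte sum was 44177 to 57582 CPM at 24 h and 22765 to 33764 CPM at 48 h, and the neutrophil sum 43.0 to 83.5 and 110 to 401 CPM, neither overlapping, and their part in the result was not tested. Over all genes the median change in that contrast was -0.25. Smpd1 lost its call by median ratios (-0.31, q = 0.0824) and at equal totals (-0.07, q = 0.657). Cers5 was called higher under both (0.31, q = 0.0215, and 0.53, q = 0.000391), and at equal totals so were Cers2 (0.54, q = 0.00203) and Degs1 (0.29, q = 0.0303), the latter from an uncalled -0.18. The 1170 higher and 4088 lower genes became 2003 and 2086 by median ratios and 3255 and 945 at equal totals.

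**Figure D5:**
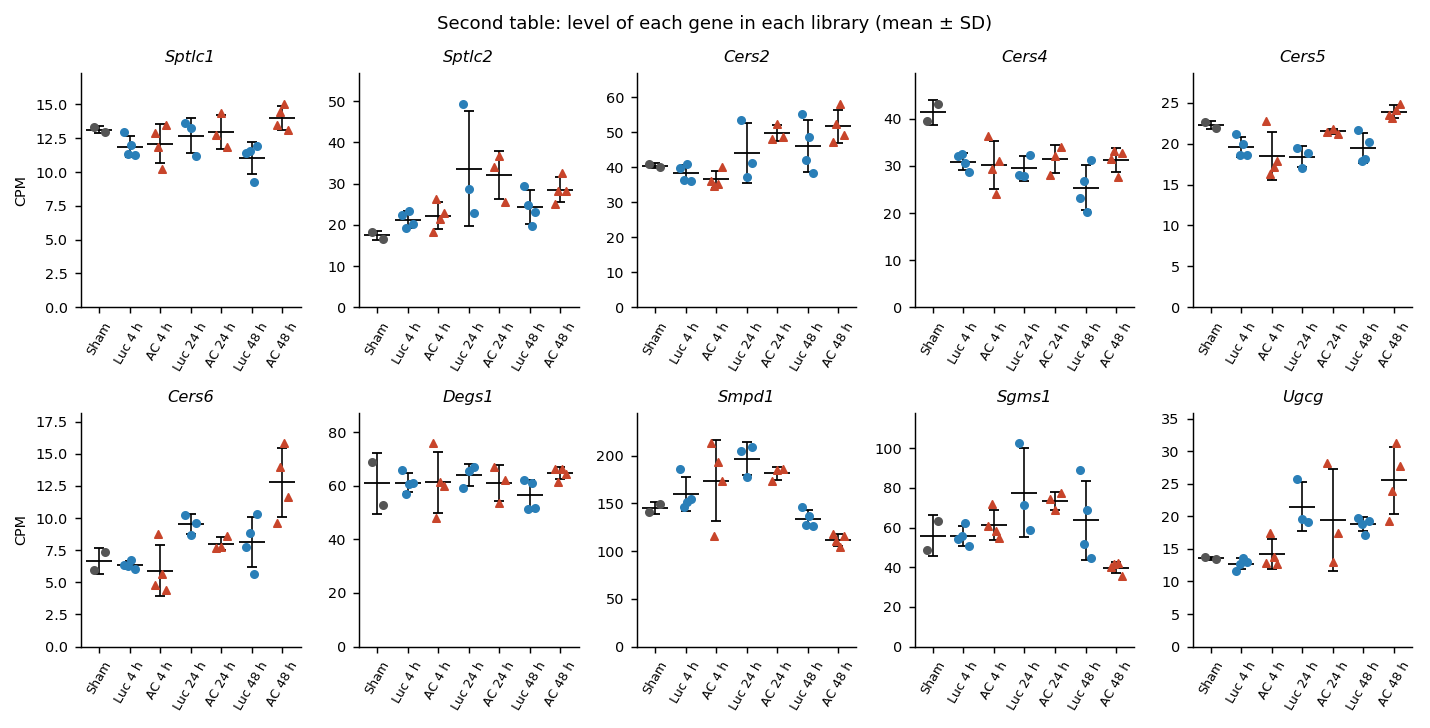
Level of each of the 10 genes in the second table, in CPM, for sham (n = 2), Luc hearts (circles) and AC hearts (triangles) at 4 h (n = 4 each), 24 h (n = 3 each) and 48 h (n = 4 each). Points are libraries, each bar is the mean and its whiskers the SD; Sgms1 in AC hearts at 48 h lies at 35.6 to 42.1 CPM below all Luc hearts of that time, and Cers4 lies below sham in all injected groups.

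Of the other pathway genes, 7 of 25 were higher and 3 lower in Luc hearts at 24 h than in sham, where 25.3% of all genes were higher and 8.79% lower in a split that turned with scaling, led by B4galt5 (log2 change 1.80), Smpdl3b (1.29), Sgms2 (1.25) and Galc, the lysosomal galactosylceramidase (-0.93). At 48 h, 3 were higher and 2 lower, where 30.1% of all genes were called, among them B4galt5 at 1.86, Smpdl3a at -0.79 and Elovl1 at 0.61. From 4 h to 24 h, 8 were higher and 1 lower (32.3% of all genes called), led by Smpdl3b (1.46), Kdsr, the reductase that follows serine palmitoyltransferase (1.17), B4galt5 (0.77) and Galc (-0.76), and from 24 h to 48 h, 2 were higher and 5 lower (41.9% of all genes called), led by Smpdl3b (-1.32), Smpd2 (-0.93), St3gal5 (-0.72) and Galc (0.69).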

How the data were processed

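LV poly(A) RNA was measured in 10 libraries of a first table and 24 of a second. For the first, the authors aligned single 50-bp reads to mm10 with STAR 2.53a, counted them on RefSeq genes by expectation-maximization in Partek and scaled them by TMM. The deposited values are CPM. For the second only the build mm10 is given, its lowest value is exactly 1, and 1 was subtracted. Below 1 CPM, 82.7% of first-table values lay within 0.02 of a whole multiple of the lowest, too few for a count test. Use of strand in counting is not given in the sources used here. On the other strand, Cers2 shares 75 exon bases with Setdb1 and 144 with 6330562C20Rik, and Cers4 shares 886 with Vmn2r-ps89. Of these, only Setdb1 is among the genes of the first table.

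Differences were tested with limma 3.58.1 (R 4.3.3, eBayes with trend) on log2(CPM + 1), which understates changes of low genes, with all groups of a table in 1 model, for genes averaging 1 CPM or more (12487 and 12555). P-values were adjusted over all of them by Benjamini-Hochberg (q), and a call is q under 0.05. Fold changes are ratios of mean CPM. Transcript lengths came from GENCODE M21. Figures were drawn with Python 3.11.15. The script was tested on simulated data. Scaling, filter, pseudocount, weights, blocks and single libraries were varied. Groups came from the labels; methods give 1 library per mouse in the first table, and where no source names separate animals, p-values measure only the spread between libraries. All 10 members are described, and of other pathway genes up to 4 per comparison with the largest called change. The members and lists were chosen with earlier results of these data known. The value of 1 other pathway gene is not reported here.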

Additional observations from a re-analysis of the deposited data

Results flagged for a closer look

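In the first table the effect of MI differed between 24 h and 4 h for 9 of the 10 enzymes, where 63.9% of all genes were called, tested as the contrast of the 2 times, which is the same as the difference of their changes from the shared sham hearts. The log2 differences were 0.35 for Sptlc1, 1.07 for Sptlc2, 1.12 for Cers2, -0.54 for Cers4, 0.35 for Cers5, 1.06 for Cers6, 0.24 for Degs1, -0.71 for Smpd1 and 0.77 for Ugcg. Those of Sptlc1, Cers5 and Degs1 were lost by median ratios and with single libraries left out. In the Luc hearts of the second table, where time, name series and the joint effect of ligation and modRNA cannot be told apart, levels differed between 24 h and 4 h for Sptlc2 (0.57), Cers6 (0.51) and Ugcg (0.70), and between 48 h and 24 h for Smpd1 (-0.55). All 4 were lost at equal totals, and the first 3 also without 24 h heart A. The effect of AC against Luc did not differ between times for any member at q under 0.05.

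In 50 sets of 4 libraries, 10 genes in 5 groups, no library stood far enough from the others to be marked as an outlier, where chance marks about 1 in 20.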

How the results depend on the processing

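Of 2430 recomputed log2 changes of the members, 2323 kept their side of the threshold, with 108 of these changing sign where neither fit called the gene, 73 lost a call, 33 gained one and 1 turned: Degs1 from 24 h to 48 h in Luc hearts, -0.18 without a call in the main analysis and 0.29 (q = 0.0303) at equal totals. At 24 h post-MI in the first table the number of members called was 7 to 9 with each library left out, and 6 to 9 for 24 h against 4 h. For AC against Luc at 48 h it was 2, and 5 with array weights, 4 at equal totals, 0 with those groups alone and 0 to 4 with each library left out. For Luc at 24 h against sham it was 3, and 1 with array weights, 0 with the compared groups alone and 0 to 3 with each library left out. For Luc at 48 h against sham it was 1, and 0 with those groups alone. For Luc at 24 h against 4 h it was 3, and 5 with array weights, 1 after median-ratio rescaling, 1 at equal totals (Cers5, lower) and 0 to 3 with each library left out. For Luc at 48 h against 24 h it was 1, and 3 with array weights, 3 at equal totals and 1 to 2 with each library left out. For the change of the AC effect it was 0, and from 4 h to 48 h 4 with array weights, 1 at equal totals and 0 to 2 with each library left out, and from 24 h to 48 h 0 to 1. The cause was not tested. Per kilobase of all exons in place of the longest transcript, sham levels were 11.1 for Cers2 and 4.35 for Cers5, and the other 8 moved by less than 1 SD.

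The median over all genes moved by more than 0.1 on rescaling in the second table, most for Luc at 48 h against 24 h (0.22 by median ratios, 0.43 at equal totals). Of the genes called, the share that was higher went from 78.7% to 50.6% by median ratios for AC against Luc at 48 h, from 74.2% to 52.9% (42.5% at equal totals) for Luc at 24 h against sham, from 75.9% to 52.4% (48.2%) for 24 h against 4 h, from 22.3% to 49.0% (77.5%) for 48 h against 24 h, and at equal totals from 45.4% to 66.1% for Luc at 48 h and from 80.9% to 70.2% for Luc at 4 h against sham, and from 65.5% to 48.8% at 4 h in the first table. For the AC effect it went from 86.0% to 58.8% by median ratios between 48 h and 4 h, and from 87.0% to 56.1% (76.0%) between 48 h and 24 h.

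With the replicate label as a block, the number of members called was 7 against 9 for 24 h against sham and 8 against 9 for 24 h against 4 h in the first table, 2 against 3 for Luc at 24 h against sham and 0 against 2 for AC against Luc at 48 h, and otherwise as without it. Of all genes, 1926 were called for AC against Luc at 48 h and 479 with the block. Same-labeled libraries of different groups had correlations of their deviations from the group means of -0.21 to 0.43, over 0.1 in 9 of 19 pairs. A library correlated best with its own label in 9 of 19 cases. With so few libraries per group to choose from, this cannot decide whether the labels pair the hearts. The main analysis did not pair them.

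The number of all genes called moved by over 1.5 times for AC against Luc at 4 h (1, and 4 without a filter and 6 with array weights) and 24 h (1, and 6 without a filter, 0 with those groups alone and 1 to 3 with a library left out), at 4 h against sham in the first table (296, and 2500 with array weights, 715 with the compared groups alone, 117 with the block, 105 to 243 with a library left out) and for the AC effect between 48 h and 4 h (421, and 1621 with array weights, 235 with a pseudocount of 0.1, 182 from a mean of 5 CPM, 777 at equal totals, 142 with the block, 195 to 1055 with a library left out) and 24 h (322, and 991, 205, 119, 495 without a filter, 95 with the block, 73 with those groups alone, 133 to 702 with a library left out). It was 1926 for AC against Luc at 48 h, and 3178 with array weights and 1182 from 5 CPM. It was 3774 for Luc at 48 h against sham, and 2227 with array weights and 1504 with those groups alone, and 4058 for 24 h against 4 h, and 6147 with array weights. For Luc at 4 h against sham it was 194, and 580 with those groups alone.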
